A study of Mus musculus with 8 samples.

Results

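The nuclear-encoded subunits of the respiratory chain were followed through 8 spatial transcriptomics sections of embryonic mouse diaphragm, the muscle sheet between chest and abdomen that drives breathing. Members were taken by symbol, as genes whose names begin with Nduf followed by a, b, c, s or v and a number, the genes Sdha, Sdhb, Sdhc and Sdhd, and genes whose names begin with Uqcr, Cox4 to Cox8 or Atp5. The rule gave 73 of 19465 genes, with 33 of complex I, 4 of complex II, 7 of complex III, 16 of complex IV and 13 of complex V, where Ndufa4l2 was placed in complex IV. The rule uses symbols alone. The names Cox4i1, Cox5a, Cox6b1, Ndufa3, Ndufa4 and Atp5g2 and the mitochondrially encoded subunits were not analysed here.

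At embryonic day E14.5 there were 3 control sections and a single CaV1.1 KO. At E18.5 there were 2 controls, with a single section each of the CaV1.1 KO and the β-cat cKO. Each section came from its own embryo and was 5 µm thick, and RNA was captured by gene-specific probes on spots of 55 µm at a spacing of 100 µm. The CaV1.1 KO is CaV1.1 -/-, the dysgenic mouse, which lacks the voltage sensor of excitation-contraction coupling in every cell, so that its muscles do not contract. In the β-cat cKO the floxed gene of β-catenin, an adhesion and Wnt signalling protein, was deleted by Cre under the human skeletal actin promoter (HSA-Cre), which acts in skeletal muscle fibers and leaves the gene intact in other cells. Controls carried at least 1 allele from which CaV1.1 is expressed and at least 1 for β-catenin. Each mutant group was a single section and has no replicate.

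The respiratory chain sits in the inner mitochondrial membrane. Complexes I and II pass electrons from NADH and succinate to ubiquinone, complex III passes them to cytochrome c, complex IV reduces oxygen, and complex V uses the resulting proton gradient to make ATP. Most subunits are encoded in the nucleus, and complex IV has subunits for which striated muscle uses an isoform of its own, such as Cox6a2, Cox7a1 and Cox8b, beside a general isoform, Cox6a1, Cox7a2 and Cox8a. Nuclear genes of the chain are known targets of NRF1, GABP (NRF2) and the estrogen-related receptors with their coactivator PGC-1α.

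Promoters are shown for muscle isoforms on which the results turn, Cox7a1 and Cox8b, and for members that hold several of the motifs searched, the general isoform Cox6a1 and the complex V gene Atp5l. The sequences are the 250 bases before the transcription start, 5′ to 3′ on the strand of the gene, from RefSeq on GRCm38.p6. They lie at chr7:30183921-30184170 on the plus strand for Cox7a1, chr7:140900447-140900696 on the minus strand for Cox8b, chr5:115348959-115349208 on the minus strand for Cox6a1 and chr9:44920743-44920992 on the minus strand for Atp5l. Capitals mark matches on either strand to NRF1 (GCGCATGC), GABP (CCGGAAG), ERR (AAGGTCA) or YY1 (AAGATGGC).
Cox7a1: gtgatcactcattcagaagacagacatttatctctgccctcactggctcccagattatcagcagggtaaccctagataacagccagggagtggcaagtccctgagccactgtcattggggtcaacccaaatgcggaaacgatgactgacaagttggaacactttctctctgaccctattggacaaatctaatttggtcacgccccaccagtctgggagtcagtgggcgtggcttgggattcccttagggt
Cox8b: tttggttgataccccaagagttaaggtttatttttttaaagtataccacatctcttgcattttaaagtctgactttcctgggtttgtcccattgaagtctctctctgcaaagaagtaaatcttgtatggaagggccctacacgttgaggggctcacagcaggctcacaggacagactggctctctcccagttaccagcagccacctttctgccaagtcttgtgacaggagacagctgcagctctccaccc
Cox6a1: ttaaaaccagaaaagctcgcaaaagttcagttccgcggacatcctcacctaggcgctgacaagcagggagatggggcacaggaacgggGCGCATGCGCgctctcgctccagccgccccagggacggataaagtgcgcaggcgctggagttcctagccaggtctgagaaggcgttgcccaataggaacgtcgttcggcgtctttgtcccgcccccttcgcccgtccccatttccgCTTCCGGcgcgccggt
Atp5l: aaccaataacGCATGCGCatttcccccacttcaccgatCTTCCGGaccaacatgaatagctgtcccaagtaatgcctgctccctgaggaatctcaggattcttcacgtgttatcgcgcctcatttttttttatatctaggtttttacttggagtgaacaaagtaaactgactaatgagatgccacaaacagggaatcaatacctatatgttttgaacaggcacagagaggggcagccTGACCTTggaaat
The windows of the muscle isoforms Cox7a1 and Cox8b held none of these letters. Their general partners Cox7a2 and Cox8a were not among the members with a match, and their windows are not shown. In Cox6a1 the NRF1 motif occurred on both strands in overlapping positions, with a GABP match close to the start, and Atp5l held an NRF1, a GABP and an ERR match. Promoters were found for 57 of the 73 members, with 62 entries. The NRF1 motif was in 11.3% of these entries and in 2.26% of all 32851 promoters, GABP in 16.1% and 6.91%, ERR in 8.06% and 4.08%, and YY1 in 1.61% and 1.56%. At least 1 motif was in 19 of the 62 entries (30.6%), against 13.9% of all promoters. These matches describe letters in a short window and not binding.

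Unless stated otherwise, sections were compared on muscle spots, those in which the mean of 9 muscle genes lay above the threshold of the section, with counts of unique molecular identifiers (UMIs) summed per section. There were 549, 571 and 581 muscle spots in the E14.5 controls, 3092 and 2199 in the E18.5 controls, 491 and 813 in the CaV1.1 KO at E14.5 and E18.5 and 1577 in the β-cat cKO. The sections held between 14179161 and 82859104 UMIs. Cacna1s, which encodes CaV1.1, was at 84.3 and 87.3 scaled counts per 1000000 UMIs (scaled CPM) in muscle of the E18.5 controls and 29.7 in the CaV1.1 KO (edgeR, adjusted p = 0.00133), and at 16.5, 14.95 and 18.4 against 13.4 at E14.5 (adjusted p = 0.34). Ctnnb1, which encodes β-catenin, was at 105 and 97.4 in the E18.5 controls and 96.2 in the β-cat cKO, so this check does not separate that section from the controls. Where its probes lie relative to the deleted exons is not given in the sources used here. A spot holds several cells of different types, and fewer cells of a type cannot be told apart from less RNA per cell. Fibroblast markers summed to between 4553 and 7234 CPM in muscle spots, and brown adipocyte markers, of a tissue rich in mitochondria, to between 2 and 37.

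**Figure D1:**
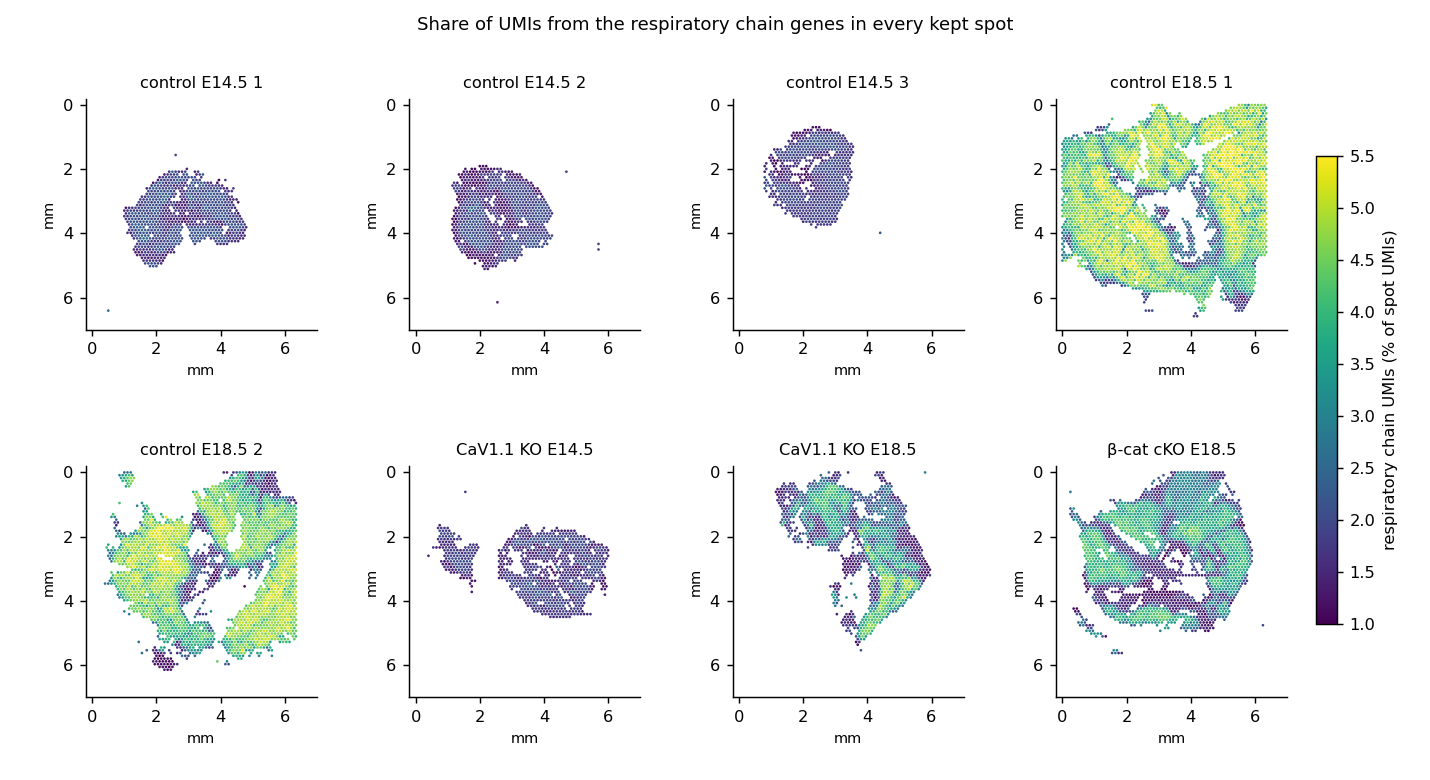
Maps of the share of UMIs from the 73 members in each spot of the sections, with position in the section on both axes and the share as color. Muscle spots of the E18.5 controls were highest, with 4.44% and 4.36% of all muscle UMIs, against 1.89% to 2.05% in the E14.5 controls and 3.42% and 3.45% in the mutants at E18.5.

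The share of muscle UMIs that came from the 73 genes was higher at E18.5 than at E14.5. It was 2.05%, 1.90% and 1.89% in the E14.5 controls, with a mean of 1.95% ± 0.0884 (SD, n = 3), and 4.44% and 4.36% in the E18.5 controls, with a mean of 4.40% ± 0.0553 (SD, n = 2). The groups did not overlap. Spots outside muscle rose less, from 1.66%, 1.37% and 1.35% to 2.18% and 1.68%. Over the same time the 9 muscle genes went from 2.16% to 2.74% of muscle UMIs to 12.8% and 13.2%, so that there were 1.14 to 1.34 UMIs of these genes per member UMI at E14.5 and 2.89 and 3.02 at E18.5.

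Gene by gene, 69 of the 72 members that passed the filter on low counts were higher at E18.5 than at E14.5 in control muscle (edgeR, p adjusted by Benjamini-Hochberg under 0.05 over 14832 genes), where 33.2% of all genes tested were called higher. A single member was lower, against a background of 32.3%. The median log2 fold change of the members was 1.88, against -0.01 for all genes. In both E18.5 controls 70 of 72 members were higher than in every E14.5 control, a pattern that was not counted over all genes. The gene that did not enter the test was Cox8c, a testis isoform, with 1 UMI at most in muscle of any section. By complex, 32 of 33 genes of complex I rose (median 1.85), all 4 of complex II (2.08), all 7 of complex III (1.97), 13 of 15 of complex IV (1.53) and all 13 of complex V (1.95). With library totals alone as the scale, without TMM, the median of all genes moved to -0.73, the share of higher genes among all called genes from 50.7% to 20.01%, and the median of the members to 1.16, with 65 members called higher and 2 lower.

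Core and structural subunits of every complex rose. Ndufs1, an iron-sulfur subunit of complex I, went from 133.9, 109 and 104 scaled CPM in the E14.5 controls to 461 and 448 in the E18.5 controls. The log2 fold change was 1.97 (SE 0.12, edgeR adjusted p = 7.31e-06). Sdha, the flavoprotein of complex II, went from 237, 202 and 198 to 866 and 892, a log2 change of 2.05 (SE 0.11, adjusted p = 4.29e-06). For each of these genes every E18.5 control lay above every E14.5 control. Uqcrc1, a core protein of complex III, rose by 2.30 on the log2 scale, Uqcrfs1, its Rieske iron-sulfur protein, by 2.16, and Cox5b, a structural subunit of complex IV, by 1.99. In complex V the catalytic Atp5b rose from 868, 783 and 808 to 3365 and 3683, and its partner Atp5a1 by 1.76 on the log2 scale.

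The range among members was widest in complex IV, from -2.15 to 6.09 on the log2 scale, against 0.42 to 3.04 in complex I. Cox7a1, the muscle isoform of subunit 7a, was at 19.4, 15.5 and 13.4 scaled CPM in the E14.5 controls and 1096 and 1102 in the E18.5 controls. This was the largest change among the 72 members tested, a 68.1-fold rise (log2 6.09, SE 0.17, edgeR adjusted p = 3.58e-07). The other muscle isoforms rose less but still more than the median member. Cox8b went from 111, 79.1 and 90.6 to 798 and 796 (log2 3.09), and Cox6a2 from 513.5, 404 and 420.1 to 3166 and 3258 (log2 2.85).

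Their general partners changed far less. Cox6a1 went from 238, 223 and 204 to 339 and 358 (log2 0.65), Cox8a rose by 0.84 and Cox7a2l, a subunit 7a relative linked to supercomplex assembly, by 0.67 on the log2 scale, whereas Cox7a2 rose by 1.63. With library totals as the scale Cox6a1 and Cox7a2l turned to -0.069 and -0.055, and Cox6b2, a testis isoform that rose by 0.52 (adjusted p = 0.022), to -0.20. The sign for these 3 genes was therefore set by the scaling.

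Outside complex IV the largest rise was that of Atp5g1, 1 of the genes for subunit c of the rotor, from 11.7, 11.6 and 10.99 to 138.5 and 122 (log2 3.51, SE 0.09), while Atp5g3, which encodes the same mature subunit c, rose by 1.98. Atp5f1, a subunit of the peripheral stalk, rose by 3.39 and the accessory complex I subunit Ndufa11 by 3.04. Ndufa4l2, a hypoxia-inducible relative of Ndufa4, rose by 2.88. Cox7b2, a testis isoform, was the member that fell, by 2.15 on the log2 scale, on 14, 17 and 4 UMIs at E14.5 and 6 and 4 at E18.5. Cox7c and Ndufb3 did not pass the test, with log2 changes of 0.08 (adjusted p = 0.509) and 0.42 (adjusted p = 0.0763).

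**Figure D2:**
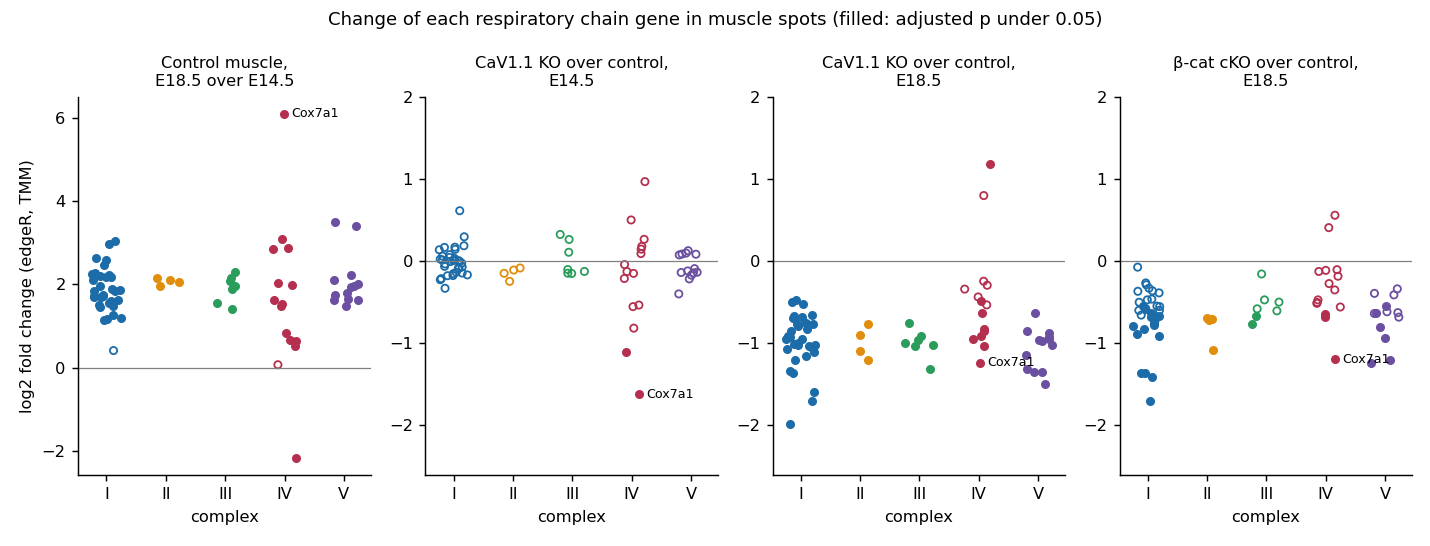
Log2 fold change of each member (points) by complex in 4 muscle comparisons, with filled points for an edgeR adjusted p under 0.05 and an axis of its own for the stage panel. Of 72 members, 69 were higher at E18.5 than at E14.5 in controls, 2 were lower in the CaV1.1 KO at E14.5, 64 were lower in the CaV1.1 KO at E18.5 and 31 were lower in the β-cat cKO.

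The shift between isoforms was also read as the share that the muscle isoform took of the UMIs of both, which does not depend on how a section is scaled. The probes of a pair can differ in efficiency, so the shares are compared between sections and not read as protein ratios. Cox7a1 gave 6.86%, 6.57% and 6.54% of the UMIs of Cox7a1 and Cox7a2 in the E14.5 controls (6.66% ± 0.174, SD, n = 3) and 60.0% and 62.6% in the E18.5 controls (61.3% ± 1.80, SD, n = 2). Cox6a2 gave 68.4%, 64.4% and 67.3% of its pair at E14.5 and 90.3% and 90.1% at E18.5. Cox8b gave 28.6%, 23.7% and 27.7% at E14.5 and 63.7% and 63.4% at E18.5. In all 3 pairs the stages did not overlap.

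The mutants differed from controls in these shares by pair and by stage. In the CaV1.1 KO at E14.5 the share was below every control of that stage in each pair. It was 2.15% for Cox7a1 (95% Clopper-Pearson interval 1.80 to 2.54), 60.6% for Cox6a2 (59.8 to 61.5) and 17.6% for Cox8b (16.8 to 18.48). At E18.5 the Cox7a1 share was 55.8% in the CaV1.1 KO (54.9 to 56.6) and 49.5% in the β-cat cKO (49.0 to 50.03), and the Cox6a2 share 87.9% and 87.6%, all below both controls. The Cox8b share was 61.2% in the CaV1.1 KO (60.5 to 62.0) and 64.7% in the β-cat cKO (64.3 to 65.1), below and above the controls. These intervals cover counting error only, and with 1 section per mutant no spread between embryos can be given for them. The shares also vary with the tissue in a spot. In E14.5 controls the mean share in muscle and in other spots was 66.7% and 34.8% for Cox6a2, 26.7% and 11.7% for Cox8b, and 6.66% and 5.23% for Cox7a1. The part of other tissue within muscle spots in the mutant shares was not tested.

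**Figure D3:**
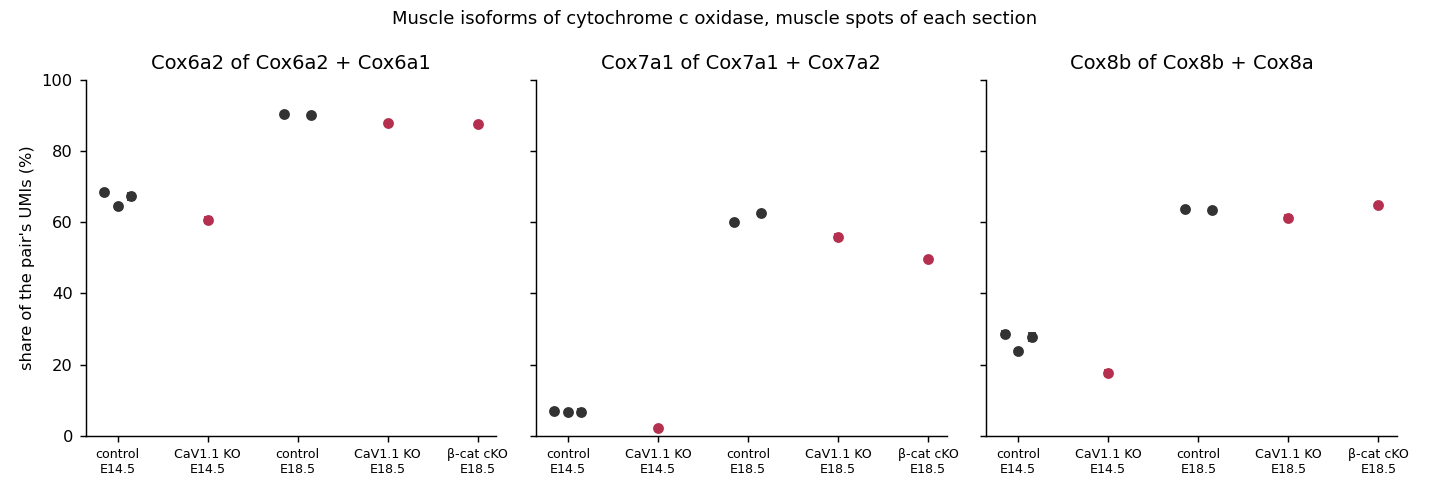
Share of the muscle isoform in the UMIs of its pair (percent, vertical axis) in muscle spots of each section, for Cox6a2, Cox7a1 and Cox8b. Points are sections, and the Cox7a1 share lies between 6.54% and 6.86% in E14.5 controls, at 60.0% and 62.6% in E18.5 controls and at 55.8% and 49.5% in the mutants at E18.5.

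In muscle of the CaV1.1 KO at E14.5 few members differed from the controls. The 73 genes gave 1.88% of its muscle UMIs, against 1.89% to 2.05% in the controls. In 33 of 72 members the KO section was below all 3 controls, and in 17 above all 3. These patterns were not counted over all genes, and a single section can lie outside 3 others without a difference between groups. The test called 2 members lower and none higher, where 1.54% of all genes tested were lower, and 7 members had an unadjusted p under 0.05 in edgeR. Cox7a1 was at 5.3 scaled CPM, against 13.4 to 19.4 in the controls (log2 -1.62, SE 0.23, edgeR adjusted p = 0.0211). Ndufa4l2 was at 4.1, against 9.6, 9.1 and 7.9 (log2 -1.10, SE 0.15, adjusted p = 0.0189). The remaining muscle isoforms did not pass, with log2 differences of -0.82 for Cox8b (adjusted p = 0.0928) and -0.54 for Cox6a2 (adjusted p = 0.19). The 9 muscle genes gave 1.62% of UMIs in this section and 2.16% to 2.74% in the controls, and the part of this difference in the result was not tested.

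At E18.5 the CaV1.1 KO had lower levels of nearly the whole chain. The members gave 3.42% of its muscle UMIs, against 4.44% and 4.36% in the controls and 1.89% to 2.05% at E14.5. Of 72 members 64 were called lower, where the background was 15.2%, and 1 was higher, where it was 10.6%. The median log2 difference was -0.93. By complex, 32 of 33 genes of complex I were lower (median -0.94), all 4 of complex II (-0.998), all 7 of complex III (-1.001), 8 of 15 of complex IV (-0.53) and all 13 of complex V (-0.97). In 70 members the KO section was below both E18.5 controls, and in 69 it was still above all E14.5 controls. Neither pattern was counted over all genes. The 9 muscle genes gave 7.14% of its muscle UMIs, against 12.8% and 13.2% in the controls. The macrophage markers, 2 genes, summed to 253 CPM against 68.6 and 92.7, and the 3 Schwann cell markers to 75.3 against 14.3 and 14.7. The part of these differences in the member counts was not tested.

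The largest differences were in complex I and complex V. Ndufa6, an accessory subunit of complex I, was at 339 and 289.4 scaled CPM in the E18.5 controls and 105 in the KO (log2 -1.59, SE 0.16, edgeR adjusted p = 0.00146). Ndufb2 differed by -1.98 and Ndufb4 by -1.71, both accessory membrane-arm subunits with 11.99 scaled CPM or less in every section. Atp5g1 was at 138.5 and 122 in the controls and 46.2 in the KO (log2 -1.496, SE 0.13, adjusted p = 0.000954). Among the core subunits the log2 difference was -0.95 for Ndufs1, -0.76 for Sdha, -1.10 for Sdhb, the iron-sulfur subunit of complex II, -0.91 for Uqcrc1, -1.04 for Cox5b and -0.87 for Atp5b.

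Of the 7 members that were not called, 6 were of complex IV and the last was Ndufb3 (-0.71, adjusted p = 0.0861). Cox7a1 was at 466.5, against 1096 and 1102 in the controls (log2 -1.24, SE 0.21, edgeR adjusted p = 0.00624), and Cox6a2 at 1805, against 3166 and 3258 (log2 -0.83, adjusted p = 0.0175). Cox8b did not pass, at 589 against 798 and 796 (log2 -0.44, adjusted p = 0.145), nor did Cox8a (-0.29, adjusted p = 0.161) or Cox7a2l (-0.25, adjusted p = 0.237). The member called higher was Cox6b2, at 12.9 against 5.1 and 6.3 (log2 1.19, SE 0.21, adjusted p = 0.00701). With library totals as the scale the median of all genes was 0.54 and that of the members -0.39, the share of higher genes among all called went from 41.1% to 90.6%, and 45 members were lower. Small differences turned sign on that scale, which for Cox6a1 went from -0.48 to 0.057.

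The β-cat cKO had a similar share of UMIs from the chain, 3.45%, with fewer genes past the test. Of 72 members 31 were lower, against a background of 5.62%, and none was higher, against 3.18%, with 60 members at an unadjusted p under 0.05 in edgeR. The count was 15 without E18.5 control 2, 19 without E18.5 control 1 and 51 in DESeq2. The median was -0.60. The 9 muscle genes gave 10.5% of muscle UMIs in this section. Markers summed to 149.6 CPM for macrophages against 68.6 and 92.7 in the controls, to 559 for smooth muscle against 306 and 311, to 37.2 for brown adipocytes against 16.6 and 13.7, and to 4769 for slow fibers against 7070 and 8493. The part of these differences in the count was not tested. The members called were 16 of complex I, 4 of complex II, 2 of complex III, 3 of complex IV and 6 of complex V. In 70 members the section was below both controls, a pattern that was not counted over all genes. Ndufa6 was at 118 (log2 -1.41, SE 0.16, adjusted p = 0.00421), Atp5g1 at 56.5 (log2 -1.20, adjusted p = 0.00295) and Cox7a1 at 481 (log2 -1.19, adjusted p = 0.0167). Cox8b, at 737, and Cox6a2, at 2248, did not pass, with log2 differences of -0.11 (adjusted p = 0.766) and -0.51 (adjusted p = 0.132). With library totals as the scale the share of higher genes among all called went from 36.1% to 79.9%, the median of all genes to 0.21 and that of the members to -0.38.

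The mutants at E18.5 were each compared with the same 2 controls, so their differences from control are not independent. Set directly against each other, no member passed the test in edgeR, with 7.3% of all genes called in either direction. There were 20 members at an unadjusted p under 0.05, and DESeq2 called 14. The median difference of the CaV1.1 KO from the β-cat cKO was -0.30. Without regard to the test, 67 of 72 members were lower in the CaV1.1 KO, as were 7315 of all 14832 genes tested. Cox7a1 had nearly the same level in both, 466.5 and 481 (log2 -0.04, adjusted p = 0.927).

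The KO difference was larger at E18.5 than at E14.5 for 33 of 72 members (edgeR test of the interaction), all toward lower values, where 4.18% of all genes tested were called lower. The largest were Ndufb2 with -2.596, Ndufa6 with -1.88 (adjusted p = 0.0176) and Ndufb4 with -1.87. Cox7a1 and Cox8b were not among them, with interactions of 0.38 (adjusted p = 0.456) and 0.38 (adjusted p = 0.417). The count rested on single control sections, since it was 57 without E14.5 control 1, 3 without E14.5 control 2, 0 without E14.5 control 3 and 15 without E18.5 control 1.

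How muscle was sampled differed between the sections. A spot within 150 µm of tissue outside muscle made up 10.1% and 9.19% of muscle spots in the E18.5 controls, 38.4% in the CaV1.1 KO and 22.3% in the β-cat cKO. The member share was lower in such spots than in spots over 350 µm away in each of these sections, with 3.56% and 4.63%, and 3.10% and 4.60%, in the controls, 2.89% and 3.93% in the CaV1.1 KO and 2.64% and 3.72% in the β-cat cKO. The mutants were below the controls at both distances. Among muscle spots over 250 µm from other tissue, an alternative chosen after seeing the data, 44 members were lower in the CaV1.1 KO (median -0.68), 15 in the β-cat cKO (median -0.50), and 1 for the interaction with stage. The share of all genes called in these spots was not counted. At E14.5 Ndufa4l2 was still called in these spots (-1.73) and Cox7a1 was not (-1.38).

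**Figure D4:**
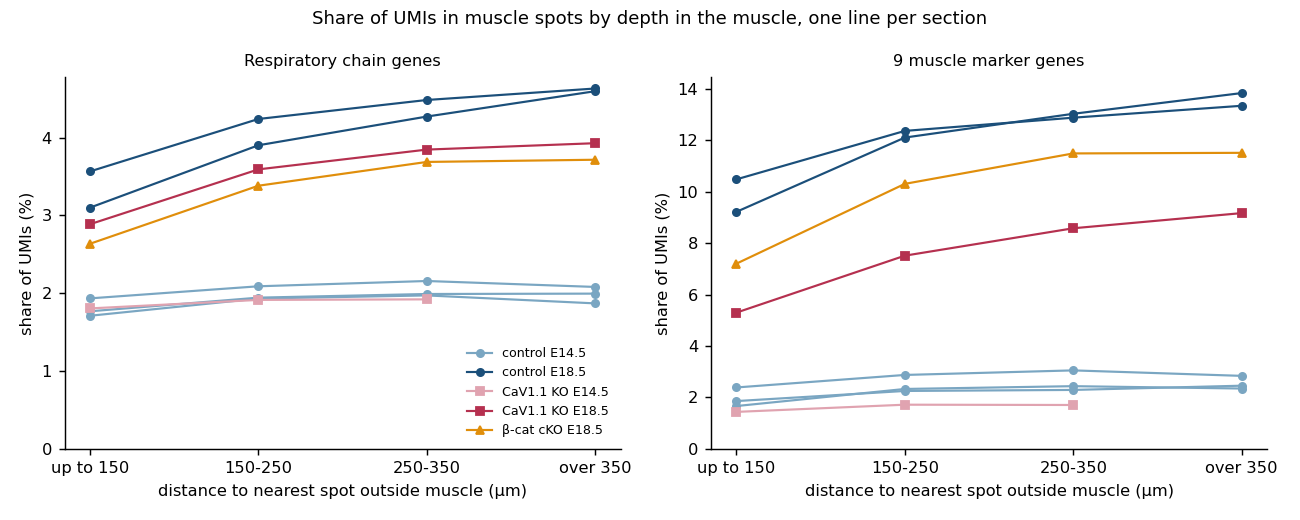
Share of muscle UMIs from the members (percent, vertical axis) by distance of the spot to the nearest spot outside muscle (µm), with a line per section. In the E18.5 controls the share rose from 3.56% and 3.10% within 150 µm to 4.63% and 4.60% beyond 350 µm, and from 1.93%, 1.77% and 1.71% to 2.08%, 1.99% and 1.87% in the E14.5 controls.

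Against the spots outside muscle of the same sections, most members were higher in muscle at both stages. At E14.5, 60 of 72 were higher in muscle (edgeR, section as block, background 21.8%), with a median log2 difference of 0.56, and at E18.5, 68 of 72 (background 29.1%), with a median of 1.85. The difference was larger at E18.5 for 63 members, where 12.3% of all genes were called in that direction, with a median of 1.28. Cox6a2 and Cox8b stood out already at E14.5. Cox6a2 was at 582, 465 and 478 in muscle and 148, 107 and 96.6 outside it (log2 2.12), and Cox8b differed by 2.10, while their values at E18.5 were 2.56 and 2.64. Cox7a1 differed by 1.08 at E14.5 and 2.69 at E18.5. The general isoform Cox6a1 differed by 0.23 and 0.68, and Cox6b2 was lower in muscle at both stages (-1.11 and -1.14), as was Ndufa4l2 at E18.5 (-0.91).

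Spots outside muscle changed with stage too, in a comparison added after seeing the data. There 37 of 71 members were higher at E18.5 (background 16.6%), with a median of 0.69. Cox7a1 rose by 4.54, Cox8b by 2.65 and Cox6a2 by 2.51 on the log2 scale in these spots, so spots outside muscle also held the muscle isoforms. The 9 muscle genes gave 0.87%, 0.56% and 0.63% of UMIs there in the E14.5 controls and 4.78% and 3.19% in the E18.5 controls. They gave 0.31% in the CaV1.1 KO at E14.5, 2.01% in that at E18.5 and 1.59% in the β-cat cKO. Hepatocyte markers summed there to 18.8, 1737 and 2981 CPM in the E14.5 controls and to 9360 and 1.88 in the E18.5 controls. They summed to 5830 in the CaV1.1 KO at E14.5, 12525 in that at E18.5 and 130 in the β-cat cKO. Adrenal cortex markers summed to 1471 in E14.5 control 1 and to 4.63 and 5.24 in the other E14.5 controls. Tissue outside muscle thus differed between sections. The part of this tissue and of muscle RNA in comparisons of or with spots outside muscle was not tested. The mutant differences did not pass there. In edgeR no member was called in the CaV1.1 KO at E14.5 (0% of all genes called, 3 members at an unadjusted p under 0.05), at E18.5 (0.108% of genes, 7 members) or in the β-cat cKO (1.22% of genes, 24 members), with medians of 0.22, -0.35 and -0.54. Whether a mutant differed more in muscle than outside it was tested as well, and no member passed for the CaV1.1 KO (0% of genes called, 58 members at an unadjusted p under 0.05, 17 in DESeq2) or the β-cat cKO (0.666% of genes, 5 members), with medians of -0.67 and -0.13. Without E18.5 control 1 the CaV1.1 KO count was 48, and without E18.5 control 2 the β-cat cKO count was 4.

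Within control muscle the members varied between the center, the 15% of spots that scored highest for 8 genes of the neuromuscular junction (NMJ), the periphery, the 15% with the highest score of 4 genes of the myotendinous junction (MTJ), and the intermediate spots. At E14.5 the center was slightly higher, with 27 of 71 members called higher (edgeR, section as block, background 9.24%) and a median log2 difference of 0.12. Section by section the median was 0.10, 0.15 and 0.13. The muscle isoforms led. Cox6a2 was at 654, 587 and 549.5 in the center and 476, 371 and 414 in intermediate muscle (log2 0.52, SE 0.05, adjusted p = 7.78e-09), Cox7a1 differed by 0.47 (adjusted p = 0.00477) and Cox8b by 0.42 (adjusted p = 2.5e-06), whereas Cox6a1 differed by 0.04 (adjusted p = 0.605).

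At E18.5 the sign was the opposite, as it was for the share of the 9 muscle genes given below. In the center 62 of 71 members were lower than in intermediate muscle (background 8.65%), with a median of -0.26 and medians of -0.29 and -0.22 in the 2 sections. Without E18.5 control 1 the count was 17. Cox7a1 was at 832 and 936 in the center and 1254 and 1227 in intermediate muscle (log2 -0.49, SE 0.05, edgeR adjusted p = 1.19e-08). Cox8b differed by -0.36, Cox6a2 by -0.33 and Sdhb by -0.33. The change of the center difference between the stages, a comparison added after seeing the data, was called for 57 members toward lower values (background 9.63%), with a median of -0.37.

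The periphery was drawn by the MTJ score here, and by distance below. At E14.5 it was lower for 3 of 71 members, or 4.23%, near the 2.97% of all genes, with a median of -0.05 over the members. Those called were the complex I subunit Ndufv1 (-0.18, edgeR adjusted p = 0.0159), Cox6a1 (-0.15, adjusted p = 0.0444) and the complex V coupling factor Atp5j (-0.15, adjusted p = 0.0359). At E18.5 it was lower for 69 of 71 members (background 21.9%), with a median of -0.49 and medians of -0.46 and -0.53 in the 2 sections. Cox7a1 was at 699.7 and 702 in the periphery, against 1254 and 1227 in intermediate muscle (log2 -0.82, SE 0.05, adjusted p = 1.14e-13), and Cox8b differed by -0.67 and Atp5f1 by -0.67. Cox6a1 differed least among those called, by -0.20. The change between the stages, also added after seeing the data, was called for 62 members toward lower values (background 7.75%), with a median of -0.45.

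The center results depended on how regions were drawn. With regions set by distance to tissue outside muscle in place of the scores, no member was called by edgeR in the center at E14.5, at E18.5 or in its change between stages, with 2, 0 and 4 members at an unadjusted p under 0.05. The log2 difference of Cox7a1 in the E18.5 center was 0.15. The periphery by distance was lower for 36 members at E14.5 (median -0.22) and for 66 at E18.5 (median -0.69), with 55 members called for the change between stages. The share of all genes called with these regions was not counted. At E14.5 the 9 muscle genes gave 2.97%, 2.56% and 2.51% of UMIs in the center and 2.65%, 2.01% and 2.25% in intermediate muscle. In the E14.5 periphery they gave 2.84%, 2.46% and 2.27%. At E18.5 they gave 11.8% and 12.6% in the center, 13.4% and 13.7% in intermediate muscle and 11.5% in both peripheries. The muscle genes were thus also higher in the E14.5 center and lower in the E18.5 center. Their part in the region results was not tested. Scaled to these genes, nearly all genes moved one way. Of all called genes 2.78% were higher in the E14.5 center, 99.1% in the E18.5 center and 97.6% in the E18.5 periphery. The median of all genes was then -0.30, 0.24 and 0.40, and that of the members -0.16, 0.025 and -0.042. A change of scale moves every gene by about the same amount. The place of the members relative to all genes is therefore fixed in advance and does not test their direction. With library totals as the scale, the share of higher genes among all called went from 58.9% to 37.0% in the E14.5 center, from 33.7% to 85.9% in the E18.5 center and from 34.1% to 82.8% in the E18.5 periphery, while 11, 30 and 64 members were called there in the directions given above.

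**Figure D5:**
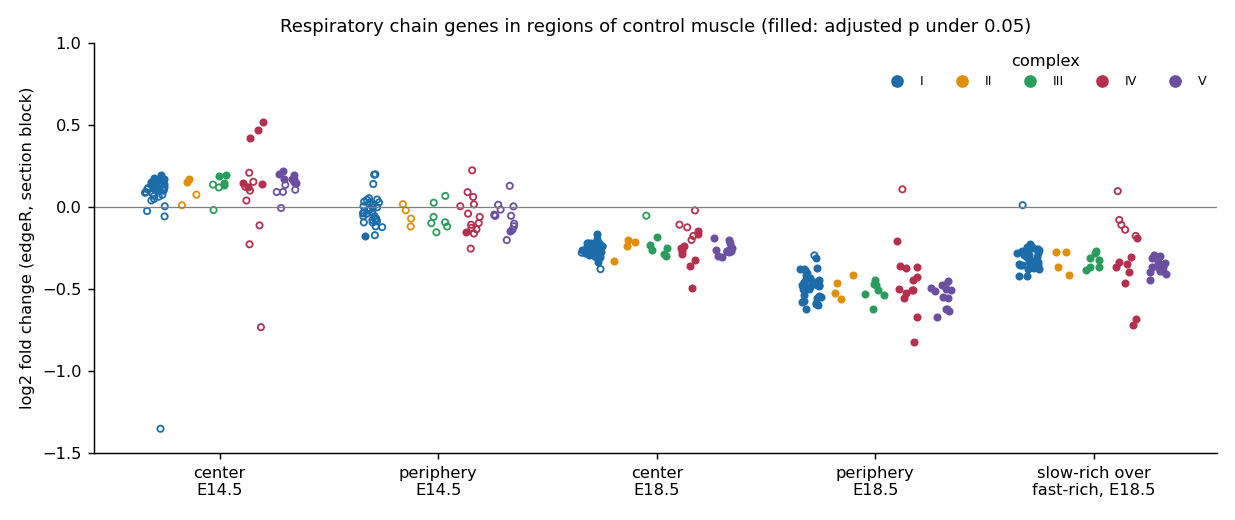
Log2 difference of each member (points, by complex) between the center or the periphery and intermediate muscle of controls at each stage, and between slow-rich and fast-rich spots at E18.5. Most members lie above 0 in the E14.5 center (median 0.12) and below 0 in the E18.5 center (-0.26), the E18.5 periphery (-0.49) and the slow-rich spots (-0.33).

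Fiber type was read in E18.5 controls from 6 genes of slow and 5 genes of fast fibers, with slow-rich and fast-rich spots as the 25% at either end of the difference of their scores. Members were lower in slow-rich spots for 64 of 71 (edgeR, section as block, background 11.6%) and none was higher, with a median of -0.33. In control 1, 70 of 71 members were lower in slow-rich spots, and in control 2, 69 of 71. Cox7a1 was at 629 and 623.5 in slow-rich and 1006 and 1003 in fast-rich spots (log2 -0.68, SE 0.04, adjusted p = 4e-10). Cox4i2, an isoform of subunit 4 linked to low oxygen, had the largest difference, at 9.8 and 9.5 against 18.6 and 13.0 (log2 -0.72, adjusted p = 0.000154). Cox8b differed by -0.47, Atp5b by -0.39 and Ndufs1 by -0.30, and neither Cox6a1 (0.10, adjusted p = 0.148) nor Cox8a (-0.08, adjusted p = 0.154) passed. The 9 muscle genes, of which several belong to fast fibers, gave 11.9% and 12.1% of UMIs in slow-rich and 13.95% and 14.4% in fast-rich spots, and their part in the result was not tested. With library totals as the scale the split of all called genes went from 49.3% to 84.1% higher, and 60 members were lower and 1 higher.

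Across spots the complexes moved together more tightly at E18.5 than at E14.5. Pearson's r between complex I and complex V, each per 10000 UMIs, was 0.35, 0.53 and 0.35 over the muscle spots of the E14.5 controls and 0.27 in the CaV1.1 KO at that stage. It was 0.82 and 0.89 in the E18.5 controls, 0.88 in the CaV1.1 KO and 0.89 in the β-cat cKO. The members per 10000 UMIs also correlated with the muscle score of a spot, the mean of the muscle genes. This r was 0.50, 0.64 and 0.54 in the E14.5 controls and 0.43 in the CaV1.1 KO at that stage. At E18.5 it was 0.83 and 0.88 in the controls and 0.91 in each mutant. The part of muscle content in the r between complexes was not tested. Spots of a section share its library and their neighborhood, and the number of UMIs per gene is higher at E18.5, so these values are descriptions.

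Other genes of mitochondrial energy supply were counted from lists taken by name. The shares of all genes to set beside these counts are 33.2% higher and 32.3% lower for stage, 15.2% lower in the CaV1.1 KO at E18.5 and 5.62% lower in the β-cat cKO. Of 42 genes for assembly factors of the complexes tested, 35 were higher and 2 lower at E18.5 in control muscle (median 0.81), and 24 were lower in the CaV1.1 KO and 9 in the β-cat cKO at E18.5. Of 18 genes of the tricarboxylic acid cycle 16 rose and 2 fell with stage (median 2.08), 16 were lower in the CaV1.1 KO and 4 in the β-cat cKO. Of 17 genes for cytochrome c, ubiquinone synthesis and electron transfer flavoproteins 15 rose (median 1.33), and 14 and 11 were lower in the mutants. The largest rise there was that of Coq8a, a kinase-like protein of ubiquinone synthesis, from 14.7, 10.1 and 10.9 to 478 and 555.5 scaled CPM (log2 5.44).

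All 6 genes for moving ATP and phosphate rose with stage. Ckmt2, the mitochondrial creatine kinase of striated muscle, went from 58.5, 35.7 and 35.5 to 2854 and 2909 (log2 6.06), a change near that of Cox7a1, and Slc25a4, the muscle ADP/ATP carrier, rose by 3.16. Ckmt2 was also lower in the CaV1.1 KO at E14.5, at 6.06 (log2 -2.84, edgeR adjusted p = 0.0126). At E18.5, 5 of the 6 genes were lower in the CaV1.1 KO and 2 in the β-cat cKO. Of the genes of glycolysis, 9 of 11 tested were higher at E18.5 (median 2.18), 9 were lower in the CaV1.1 KO, and 1 in the β-cat cKO, near the share of all genes.

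Of 17 regulators of mitochondrial genes, 8 rose and 4 fell with stage in control muscle, where 33.2% of all genes were called higher and 32.3% lower. Ppargc1a, which encodes PGC-1α, rose by 2.67 on the log2 scale, Esrrg, an estrogen-related receptor, by 2.95 and Esrra by 2.27. In the CaV1.1 KO at E14.5 Ppargc1a (log2 -1.10, edgeR adjusted p = 0.0423) and Esrrg (log2 -0.99, adjusted p = 0.0384) were lower, and with Ckmt2 they were the genes of all these lists called at that stage. At E18.5, 2 of the 17 were called higher and 4 lower in the CaV1.1 KO, against 10.6% and 15.2% of all genes. In the β-cat cKO 0 were higher and 3 lower, against 3.18% and 5.62%. Only Ppargc1a and estrogen-related receptor genes are named here, and not every regulator called. Esrrg was lower in the CaV1.1 KO at E18.5, at 9.04 against 31.7 and 30.8 (log2 -1.79), and not called in the β-cat cKO (-0.45, adjusted p = 0.1). Ppargc1a was lower in the β-cat cKO, at 31.6 against 70.2 and 75.9 (log2 -1.21), and not called in the CaV1.1 KO (-0.38, adjusted p = 0.152). Esrrb was lower in the β-cat cKO, by -2.55 on the log2 scale. Tested directly, Esrrg was lower in the CaV1.1 KO than in the β-cat cKO (-1.34, edgeR adjusted p = 0.00616) and Esrrb higher (1.90, adjusted p = 0.00568), while Ppargc1a did not pass (0.83, adjusted p = 0.0534).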

How the data were processed

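Spatial gene expression (10x Visium, FFPE, probe set 1.0) was measured in 8 sections. The authors deposited raw UMI counts of each gene in each spot, made with Space Ranger on mm10 (GRCm38), without normalization. Per the file headers the version was 2.0.0 for E14.5 controls 1 and 2 and the CaV1.1 KO at E14.5. It was 2.0.1 for E14.5 control 3 and all E18.5 sections. The version thus largely follows stage, and its part in the stage differences was not tested. The authors also deposited spatial enrichment scores and p-values per gene, which were not used here. Members and lists were chosen with earlier results of these data known, and p-values over all genes do not account for that choice.

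Spots with at least 1000 UMIs were kept and log-normalized to 10000 UMIs to define muscle (9 genes, Otsu threshold per section), center and periphery (15% each), and slow-rich and fast-rich spots (25% each). UMIs were summed per section and class and tested with edgeR 4.0.16 in R 4.3.3 (filterByExpr, TMM, quasi-likelihood F test, threshold 0.05 on p adjusted by Benjamini-Hochberg over all genes tested). Levels are UMIs per 1000000 (CPM) after TMM scaling and are comparable within a gene and within a fit. Sections were compared in 1 fit of 5 groups with 3 residual degrees of freedom, so that the spread of a mutant is that of the control sections. Comparisons of classes within sections had the section as a block, because these come from 1 embryo. The deviations of muscle and other spots of a section correlated at 0.32 to 0.50, those of center and periphery at 0.20 to 0.59.

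Named members were the tissue isoforms with their partners, core subunits, and the 5 called members at each end of a comparison. Glycolysis, regulators and the other lists were matched by symbol, and list genes not in the table were not analysed here. Shares have 95% Clopper-Pearson intervals. Alternatives were DESeq2 1.42.0, other scalings, no filter, other spot classes, and leaving out each control. On simulated counts with a fixed spread and no differences between sections, 91.9% to 99% of changes of 1 on the log2 scale were recovered. The lowest share was that of the E14.5 center. Only the stage comparison of controls, muscle against other spots at E14.5, the E14.5 center and fiber type were simulated. Mutant comparisons, the periphery and changes smaller than 1 were not, so recovery there is not known. Promoters were matched by symbol to RefSeq.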

Additional observations from a re-analysis of the deposited data

Results flagged for a closer look

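In 4 comparisons the effect differed between stages by a direct edgeR test of the difference. The CaV1.1 KO effect in muscle was lower at E18.5 than at E14.5 for 33 of 72 members. The difference between muscle and other spots was larger at E18.5 for 63 members. The difference of the center from intermediate muscle was lower at E18.5 than at E14.5 for 57 members, and that of the periphery for 62 members. The first rests on a single KO section at each stage and on single controls, and the center result on the score that draws the region. With regions by distance the center count was 0 and that of the periphery 55.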

How the results depend on the processing

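Counts of called members that moved by over 1.5 times were as follows, and the cause was not tested unless the alternative left out sections. The share of all genes called was not counted under the alternatives, here or above. For the CaV1.1 KO at E14.5 DESeq2 gave 4 and deep muscle spots, over 250 µm from other tissue and chosen after seeing the data, gave 1. For the β-cat cKO DESeq2 gave 51, deep spots 15 and leaving out a control 15 to 19. For the mutants against each other library totals, no filter and the muscle spots with the highest scores gave 1 each and DESeq2 14. For the KO interaction with stage library totals gave 18, DESeq2 58, deep spots 1 and leaving out a control 0 to 57. For muscle against other spots, DESeq2 gave 17 and no filter 2 for the CaV1.1 KO, no filter gave 1 for the β-cat cKO, and leaving out a control gave up to 48 and 4.

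In the E14.5 center library totals gave 11, leaving out a section 6 to 13, regions by distance 0, and scaling to the 9 muscle genes reversed the direction with 29. That scale moved all genes, with 2.78% of called genes higher in the E14.5 center, 99.6% for the stage difference of the center and 99.7% for that of the periphery. Such a shift cannot change the place of the members relative to all genes, so it does not test their direction. In the E18.5 center these were 30, 17 (without E18.5 control 1), 0 and, for the muscle gene scale, 1. In the E14.5 periphery library totals and no filter gave 5 each, leaving out a section 0 to 11, distance 36, muscle gene scale 27 and regions of 10% 1. In the E18.5 periphery the muscle gene scale gave 4. The stage difference of the center was 0 by distance, and on the muscle gene scale it reversed with 15, as that of the periphery did with 7.

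The replicate numbers do not pair the stages (correlation 0.041), and a replicate block in the section fits gave 0 for the CaV1.1 KO at E14.5, 3 for the β-cat cKO, 1 for the mutants against each other and 0 for the KO interaction. With no replicate block in the class fits, the E14.5 center gave 1, the E18.5 center 0, the E14.5 periphery 0, slow-rich spots 1 and the stage differences of center and periphery 1 and 2. No count of the other comparisons moved by over 1.5 times with the block. Leaving out a section could not be tested for fiber type, which leaves no residual degrees of freedom.

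Of 984 values of named genes under the alternatives, 861 kept direction and call, 110 kept direction and lost the call, and 13 reversed. With library totals these were -0.069 for Cox6a1, -0.20 for Cox6b2 and -0.055 for Cox7a2l between stages, 0.057 for Cox6a1, 0.062 for Ndufa13, 0.037 for Ndufa2 and 0.014 for Ndufb6 in the CaV1.1 KO at E18.5, and -0.031 and 0.014 for Cox6a1 in muscle against other spots and in the periphery at E18.5. In the E18.5 center by distance they were 0.032 for Cox6a2, 0.15 for Cox7a1 and 0.046 for Cox8b, and on the muscle gene scale 0.25 for Cox6a1 in the E18.5 periphery. Depth limits Cox8c, Cox7b2 and the other members of few UMIs.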
